A study of Rattus norvegicus with 8 samples.

Results

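Asb15 and its paralogs encode ankyrin repeat and SOCS box proteins, the substrate-binding parts of a family of ubiquitin ligases. Of the 10 Asb genes listed by symbol, 9 were found among the 52753 loci of the deposited tables. They are Asb15, Asb1, Asb2, Asb3, Asb4, Asb6, Asb7, Asb8 and Asb13, and no locus carried the symbol Asb11, whose level was not analysed here. Where a pair of loci shared a symbol (Asb8 and Asb13), the one with more fragments was taken. Asb15 was chosen by its difference in fragment counts and fold change between the groups, so its values are a description with no test, while the question for its paralogs was whether any of them differed as well.

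Stranded mRNA sequencing was done on the small intestine, taken over its whole length, trimmed of fat and flushed of its contents, of Sprague Dawley rats at postnatal day 21. There are 4 libraries of rats labelled CF, for cystic fibrosis, in which the anion channel CFTR is lost, and 4 libraries of wild-type (WT) rats. The labels give no CF allele, sex or litter. Nothing in them ties a library to a single animal, and p-values therefore measure the spread between libraries, which may be technical. The libraries are named by the numbers 0 to 3 that the table gives them, which are not known to have an order or to pair a CF with a WT library.

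In these ligases the ankyrin repeats of an Asb protein hold the substrate, and the SOCS box joins it to elongin B and elongin C. The elongins link it to the scaffold cullin 5, whose RING partner Rnf7 brings in the ubiquitin-conjugating enzyme. Asb15 is known mainly from skeletal muscle. The paralogs have different reported substrates, so that the family is a set of adaptors sharing one catalytic core.

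The CF libraries held 18621671 to 20890031 fragments and the WT libraries 15255364 to 20812425. Cftr itself was at 97.3 ± 6.40 CPM in CF, against 94.8 ± 14.7 CPM in WT (mean ± SD, n = 4 each; CPM are library-size-scaled counts, with TMM factors), which does not check the labels, since the allele is not given. Enterocyte markers were present in all libraries, with 9 of 10 found and a summed level of 8656 to 27555 CPM in CF, against 14348 to 25614 CPM in WT. The lowest of these sums belonged to CF library 0, where every other library had at least 14348 CPM. The log2 fold changes of Asb15, Asb8 and Asb2 are therefore also given without CF library 0. In whole tissue, fewer cells of a type and less RNA per cell cannot be told apart.

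The RefSeq promoter window of Asb15, the member with the largest difference, is shown as the sequence around its annotated start. RefSeq lists 2 windows for the gene, of which the first in the table was taken, in build GRCr8 at chr4:53986967-53987266 on the plus strand, from 250 bases before to 50 after the annotated start, 5′ to 3′. Capitals mark its 1 match to the E-box letters CANNTG, which read the same on both strands and are bound by muscle and other basic helix-loop-helix factors.
Asb15: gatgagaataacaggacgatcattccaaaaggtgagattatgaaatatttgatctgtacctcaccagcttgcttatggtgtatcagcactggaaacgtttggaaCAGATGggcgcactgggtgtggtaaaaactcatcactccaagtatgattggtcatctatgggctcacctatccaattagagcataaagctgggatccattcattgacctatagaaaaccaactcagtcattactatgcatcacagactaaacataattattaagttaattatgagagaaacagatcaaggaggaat
The match begins 146 bases before the start. Such a match was in 71.6% of 27457 promoters, 1 per gene, and in 7 of the 8 member promoters in the table. Neither the TATAAA letters (either strand, 14.3% of promoters) nor the MEF2 motif (3.37%) occurred in this window.

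Transcripts of Asb15 were nearly absent from the CF intestine. The locus (chromosome 4, 51614676 to 51644492, Rnor_6.0) had 1, 5, 5 and 3 fragments in CF libraries 0, 1, 2 and 3, against 130, 167, 170 and 85 in WT libraries 0, 1, 2 and 3. After scaling these were 0.0482, 0.282, 0.266 and 0.150 CPM in CF, against 7.91, 8.38, 7.92 and 5.80 CPM in WT. Every CF library lay far below every WT library, and among the WT libraries number 3 was the lowest. The means were 0.186 ± 0.109 CPM in CF, against 7.50 ± 1.15 CPM in WT (SD, n = 4 each), so the CF level was 2.49% of the WT level. This is a log2 fold change of −5.31 with an SE of 0.35 (95% interval −6.09 to −4.53), and of −4.98 without CF library 0. The SE and interval take no account of the choice of Asb15 by this difference, so they are no test. With any 1 library left out the log2 fold change was between −5.57 and −4.98. It rests on 14 fragments in the CF group, and on the authors' FPKM (fragments scaled by transcript length and library size) it was −3.96 with a pseudocount of 0.1 and −1.61 with one of 1, values that a pseudocount near the level of the gene pulls towards 0.

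**Figure D1:**
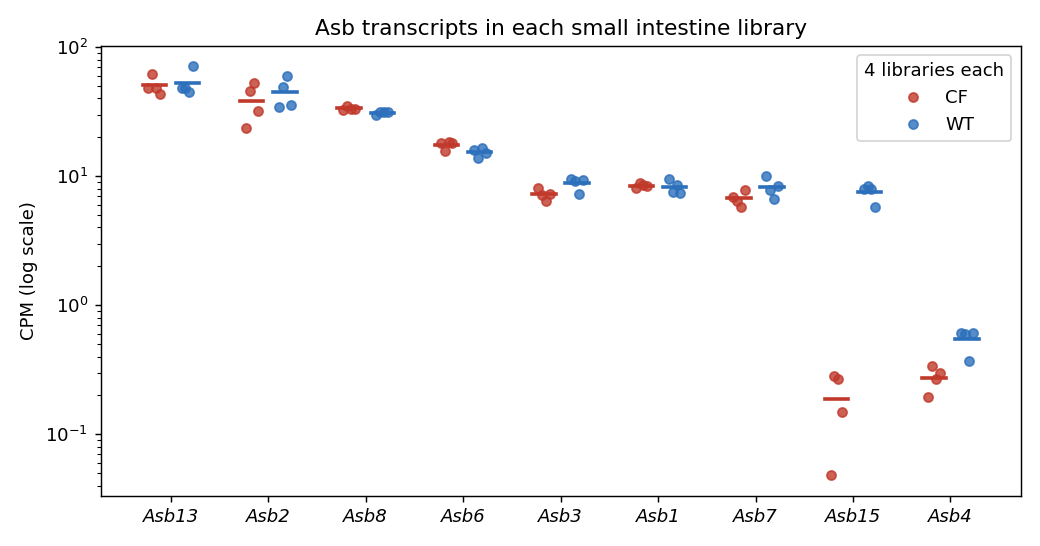
Level of each Asb gene in CPM on a log axis, in the 4 CF libraries (red, left) and the 4 WT libraries (blue, right); points are libraries and bars are means. The CF points of Asb15 lie between 0.0482 and 0.282 CPM and its WT points between 5.80 and 8.38 CPM, while for 6 paralogs, Asb13, Asb2, Asb6, Asb3, Asb1 and Asb7, the groups overlap.

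None of the paralogs showed a difference of that kind. Of the 8 paralogs found, 7 passed the filter on low counts and were tested, and 0 of 7 passed edgeR's quasi-likelihood test at an adjusted p of 0.05, where 0.165% of all 16941 tested loci did (0.136% higher and 0.0295% lower in CF). At an unadjusted p of 0.05 the count was also 0 of 7, against 15.1% of all loci, and DESeq2 and limma-voom called 0 of them. Means were higher in CF for 3 and lower for 4, with log2 fold changes from −0.28 to 0.19 and a median of −0.07, against a median of −0.0049 over all tested loci. The lowest bound of their 95% intervals was −0.82 (Asb2) and the highest was 0.44 (Asb6). The adjusted p-values (edgeR, Benjamini-Hochberg) lay between 0.398 and 0.929. The summed level of the 8 paralogs was 162 ± 17.0 CPM in CF, against 169.5 ± 9.35 CPM in WT (SD, n = 4 each), and its ranges overlapped.

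**Figure D2:**
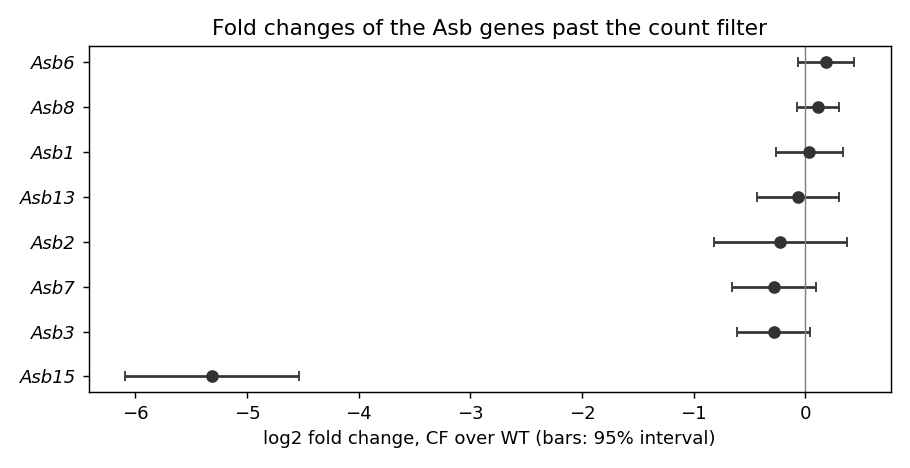
Log2 fold change (CF over WT) of the 8 Asb genes past the low-count filter, with 95% intervals from edgeR's fit. The 7 paralogs lie between −0.28 and 0.19 with intervals that include 0, and Asb15 lies at −5.31. Since Asb15 was chosen by this difference, its interval is no test.

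Asb8 (chromosome 7, 139724337 to 139743439) was the tested paralog in which the groups did not overlap. It had 32.8, 34.8, 33.0 and 33.1 CPM in CF libraries 0, 1, 2 and 3, against 29.5, 31.5, 31.4 and 31.3 CPM in the WT libraries in the same order. All CF libraries thus lay above all WT libraries, by a small margin. Groups that do not overlap were found in 8.78% of all tested loci, 4.86% with CF higher and 3.91% with CF lower. Its log2 fold change was 0.11 (SE 0.08, 95% interval −0.08 to 0.30, edgeR adjusted p = 0.564), and 0.12 without CF library 0.

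Asb4 (chromosome 4, 30302993 to 30501329), a family member known from blood vessels and the hypothalamus, was hardly detected and missed the low-count filter. It had 4, 6, 5 and 6 fragments in CF libraries 0, 1, 2 and 3, against 10, 12, 8 and 9 in the WT libraries in the same order. These were 0.193 to 0.339 CPM in CF, against 0.373 to 0.614 CPM in WT, and the groups did not overlap, as in 5.21% of the 3899 loci with 30 to 120 fragments that missed the filter. With a minimum count of 5 in place of 10 its log2 fold change was −0.98 (SE 0.40, edgeR adjusted p = 0.299), and with no filter −0.95 (SE 0.57, edgeR adjusted p = 0.471). Neither fit passed the test at these counts. Endothelial markers, of which 4 of 5 were tested, had summed levels of 60.9 to 95.4 CPM in CF, against 95.2 to 124 CPM in WT. Means were lower in CF for 4 of 4, with 0 calls by edgeR in the main fit and 0 by limma-voom. DESeq2 called 2 of them lower, where it called 203 of all 16941 loci lower. With no low-count filter edgeR called 3 lower, and with 1 library left out 0 to 2. At an unadjusted p of 0.05 (edgeR) 4 were lower, as were 7.21% of all loci. The part of endothelial cells in the Asb4 values was not tested.

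Asb2 (chromosome 6, 127212273 to 127248414), the adaptor for filamins in muscle and blood cells, had the largest SD relative to its mean among the tested paralogs, in both groups. It had 23.8, 45.2, 52.7 and 31.8 CPM in CF libraries 0, 1, 2 and 3, against 34.4, 49.1, 59.7 and 35.6 CPM in the WT libraries in the same order. In both groups library 2 was the highest and library 0 the lowest, and the groups overlapped over most of their range. CF over WT, log2, was −0.22 (SE 0.26, 95% interval −0.82 to 0.37, edgeR adjusted p = 0.734), and −0.05 without CF library 0. Without any 1 of the libraries in turn it lay between −0.41 and −0.05.

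Asb3, which in human cells directs the degradation of a receptor for tumour necrosis factor (Tnfrsf1b), and Asb7, which acts on a spindle protein (Psrc1) in human cells, had the lowest fold changes among the tested paralogs, which leave out Asb4. Asb3 (chromosome 14, 115352730 to 115449803) was at 7.23 ± 0.702 CPM in CF, against 8.81 ± 1.08 CPM in WT (log2 fold change −0.28, SE 0.15, edgeR adjusted p = 0.398). Asb7 (chromosome 1, 127554785 to 127599257) was at 6.71 ± 0.859 CPM in CF, against 8.17 ± 1.40 CPM in WT (log2 fold change −0.28, SE 0.17, edgeR adjusted p = 0.462). With any 1 library left out, Asb3 was between −0.37 and −0.23 and Asb7 between −0.37 and −0.17. In each gene the lowest WT library, number 2, lay below the highest CF library.

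Asb6, which binds the insulin signalling adaptor Sh2b2, and Asb13, an adaptor for the transcription factor Snai2 in human cells, did not pass the test either. Asb6 (chromosome 3, 9643033 to 9664487) was at 17.4 ± 1.30 CPM in CF, against 15.3 ± 1.24 CPM in WT (log2 fold change 0.19, SE 0.11, edgeR adjusted p = 0.462), and between 0.14 and 0.24 with 1 library left out. Asb13 (chromosome 17, 70213146 to 70234120) was at 50.3 ± 8.29 CPM in CF, against 52.8 ± 12.1 CPM in WT (−0.07, SE 0.17, edgeR adjusted p = 0.884). Asb1 (chromosome 9, 98668231 to 98689471) was at 8.45 ± 0.320 CPM in CF, against 8.24 ± 0.997 CPM in WT (0.03, SE 0.14, edgeR adjusted p = 0.929). The signs of Asb13 and Asb1 changed under other settings. The 95% intervals of all tested paralogs spanned both signs, so that no direction can be given for any of these genes.

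Levels of different genes were compared per length, on the authors' FPKM. In CF the order was Asb8 (16.0 ± 2.21 FPKM), Asb2 (9.34 ± 3.63), Asb13 (6.81 ± 1.64), Asb6 (6.64 ± 2.13), Asb3 (4.06 ± 0.500), Asb7 (2.86 ± 0.409), Asb1 (1.29 ± 0.243), Asb4 (0.0731 ± 0.0194) and last Asb15 (0.0484 ± 0.0264). In WT it was Asb8 (15.3 ± 0.648 FPKM), Asb2 (11.1 ± 3.15), Asb13 (6.99 ± 1.10), Asb6 (6.04 ± 1.29), Asb3 (5.04 ± 0.793), Asb7 (3.39 ± 0.903), Asb15 (2.21 ± 0.430), Asb1 (1.32 ± 0.369) and Asb4 (0.150 ± 0.0370). Asb15 was thus a low member of the family in WT, its range overlapping that of Asb1 but lying below that of Asb7. In CF its range overlapped that of Asb4 alone. The order of the other 8 genes was the same in both groups, although neighbours from Asb8 down to Asb6 in CF, and from Asb8 down to Asb7 in WT, overlapped in range. The authors' FPKM depend on the transcripts assigned to a locus as well as on its count. For Asb15, 1 fragment in CF library 0 gave 0.0258 FPKM and 3 fragments in CF library 3 gave 0.0267 FPKM.

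The 8 Asb genes outside the list were close to absent. Asb5, a muscle member, had 19 fragments over the 4 CF libraries and 23 over the 4 WT libraries. Asb14 had 6 fragments in CF and 11 in WT, and Asb16 had 9 in CF and 7 in WT. Asb9, Asb12 and Asb18 had 0 to 3 fragments in any group, Asb10 and Asb17 had none in any library, and none of the 8 passed the filter. Neither these 8 genes nor Asb4 were abundant in either group.

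Asb15 lies on the chromosome of Cftr, 8.75 Mb from it from edge to edge, and Asb4 lies 12.2 Mb from Cftr on the other side. The locus of Asb15 does not overlap that of its neighbours, Ndufa5 on one side and Wasl on the other. Ndufa5, a subunit of respiratory complex I whose midpoint is 36.5 kb away, was at 62.0 ± 4.85 CPM in CF, against 67.7 ± 10.7 CPM in WT (log2 fold change −0.13, SE 0.13, edgeR adjusted p = 0.674). Wasl, an activator of actin nucleation 72.4 kb away, was at 124 ± 5.72 CPM in CF, against 109 ± 5.93 CPM in WT (0.19, SE 0.09, edgeR adjusted p = 0.337). Wasl was higher in every CF library than in any WT library, as were 4.86% of all tested loci. The groups of Ndufa5 overlapped. Both genes were well expressed in every library and neither resembled Asb15.

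The other named tested loci nearest to Asb15 had lower means in CF, but none passed the test. Iqub, 95.1 kb away, was at 0.577 ± 0.122 CPM in CF, against 1.04 ± 0.229 CPM in WT (log2 fold change −0.83, SE 0.31, edgeR adjusted p = 0.251), and its groups did not overlap. For Gpr37, which encodes a G protein-coupled receptor, the log2 fold change was −0.78 (SE 0.34, edgeR adjusted p = 0.317), and for Slc13a1, a sulfate transporter, −0.59 (SE 0.27, edgeR adjusted p = 0.348). The telomere protein gene Pot1 was at −0.10 (SE 0.15, edgeR adjusted p = 0.779). Lmod2, a striated muscle gene listed over the same span as Iqub, had no fragment in any library.

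Within 1 Mb of Asb15, 9 other loci were tested, with lower means in CF for 7 and a median log2 fold change of −0.59. Of these, 0 passed the test, against 0.165% of all loci, and 3, each lower in CF, had an unadjusted p below 0.05, against 7.21% of all loci in that direction. Those 3 were Gpr37, Iqub and an unnamed locus, XLOC_035700, at 0.999, 0.577 and 0.352 CPM in CF, against 1.70, 1.04 and 0.740 CPM in WT. Within 10 Mb, 78 loci were tested, with a median of −0.0057, 38 higher and 40 lower means in CF and 0 calls, against 15 at an unadjusted p of 0.05 (19.2%, where all loci gave 15.1%). DESeq2 called 2 of them, Tes and Capza2, both higher in CF, where it called 621 of all 16941 loci, and limma-voom called 0. Without CF library 0 or without CF library 2, edgeR called 1, Tes. Tes, named after its values were seen, lies 7.29 Mb from Asb15 and was at 114 ± 8.35 CPM in CF, against 77.5 ± 2.87 CPM in WT (log2 fold change 0.55, SE 0.09, edgeR adjusted p = 0.0522).

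**Figure D3:**
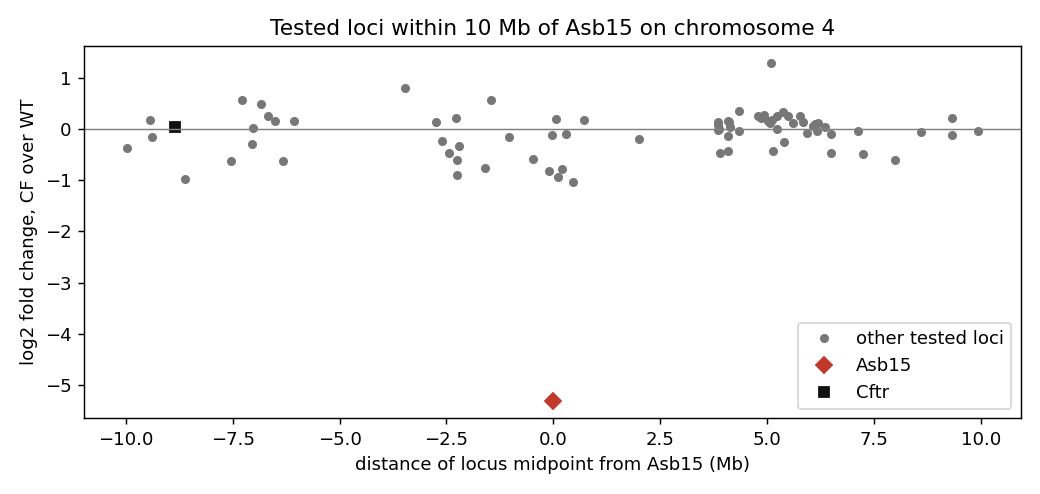
Log2 fold change (CF over WT) of the tested loci within 10 Mb of Asb15 against the distance of their midpoint from it in Mb; the diamond is Asb15 and the square is Cftr. Apart from Asb15 at −5.31, the loci lie between −1.04 and 1.29.

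The core that Asb proteins share was expressed in both groups, and none of its genes passed the test. Of the 29 symbols listed for the cullin 5 ligase, its neddylation enzymes and the signalosome that removes Nedd8, 23 were found (elongin C and B under the names Tceb1 and Tceb2) and 22 tested. The count was 0 of 22 by edgeR, DESeq2 and limma-voom, and 2 higher and 1 lower had an unadjusted p below 0.05, where 7.94% and 7.21% of all loci did. The median log2 fold change was 0.10, with 19 higher means in CF, where 49.2% of all loci had higher means. Cul5, the scaffold, was at 37.0 ± 3.53 CPM in CF, against 36.2 ± 1.23 CPM in WT (log2 fold change 0.03, SE 0.10, edgeR adjusted p = 0.914). For Tceb2 the log2 fold change was 0.26 (SE 0.10, edgeR adjusted p = 0.278), for Tceb1 0.18 (SE 0.16, edgeR adjusted p = 0.644) and for Rnf7 0.16 (SE 0.12, edgeR adjusted p = 0.539). The list is wider than the cullin 5 ligase, as it also holds Cul2. Its most abundant genes were the exchange factor gene Cand1 (83.5 ± 10.3 CPM in CF, against 80.3 ± 2.94 CPM in WT) and the ligase gene Arih1 (81.9 ± 11.4 CPM in CF, against 74.7 ± 3.49 CPM in WT).

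None of the other adaptors with a SOCS box passed edgeR's test, but most had higher means in CF. Of 20 listed, 17 were tested, and 0 passed by edgeR and by limma-voom. DESeq2 called 1, where it called 621 of all 16941 loci. An unadjusted p below 0.05 (edgeR) was found for 4, each higher in CF, where 7.94% of all loci were. Means were higher in CF for 13 and lower for 4, where 49.2% of all loci had higher means. The median log2 fold change was 0.10. Their summed level was 594 to 666 CPM in CF, against 532 to 576 CPM in WT, so that every CF library lay above every WT library. Among the 17 genes taken singly this held for 1, Wsb2, and it held for 4.86% of all tested loci. Wsb2 and Wsb1, the most abundant, were at 98.7 ± 10.7 CPM in CF, against 77.8 ± 3.38 CPM in WT (log2 fold change 0.34, SE 0.10, edgeR adjusted p = 0.174), and at 76.1 ± 9.47 CPM in CF, against 73.1 ± 9.92 CPM in WT (0.06, SE 0.13, edgeR adjusted p = 0.867). Socs1, a brake on cytokine receptors that DESeq2 called, was at 11.0 ± 4.98 CPM in CF, against 5.13 ± 1.76 CPM in WT (1.10, SE 0.35, edgeR adjusted p = 0.202).

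Transcripts of reported Asb substrates were measured too, although a ligase acts on the protein and not on the transcript. Of 13 listed, 11 were tested, and 0 passed by edgeR, DESeq2 and limma-voom. An unadjusted p below 0.05 (edgeR) was found for 3 higher and 1 lower, where 7.94% and 7.21% of all loci had one. The median log2 fold change of the tested genes was 0.09. Flna, the filamin that Asb2 targets, was at 917 ± 113 CPM in CF, against 852 ± 195 CPM in WT (0.11, SE 0.19, edgeR adjusted p = 0.825). Ckb, the creatine kinase that Asb9 targets, was at 641 ± 125 CPM in CF, against 601 ± 44.5 CPM in WT (0.09, SE 0.15, edgeR adjusted p = 0.814).

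**Figure D4:**
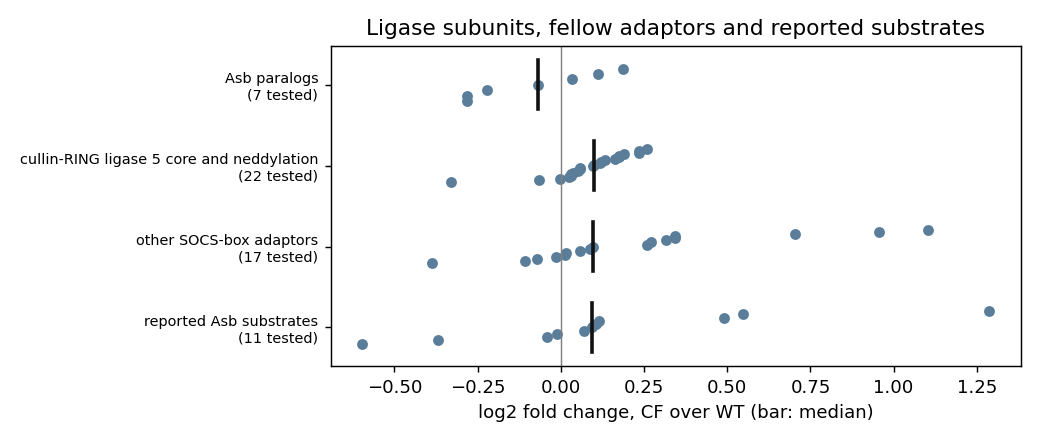
Log2 fold changes (CF over WT) of the tested Asb paralogs, cullin 5 ligase genes, other SOCS-box adaptors and reported substrates; each point is a gene and each bar the median of its list. The medians are −0.07, 0.10, 0.10 and 0.09, and no point passed the test.

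Since Asb15 is known from skeletal muscle, muscle markers were set beside it. Of 29 striated muscle genes 26 were found and 17 tested, with a summed level of 78.1 to 136 CPM in CF, against 89.1 to 124 CPM in WT. The muscle-determining gene Myod1 had no fragment, and Myog had 5 over the 8 libraries. None passed the test by edgeR or limma-voom. DESeq2 called 1, where it called 621 of all 16941 loci. At an unadjusted p of 0.05 (edgeR) 1 was higher in CF, as were 7.94% of all loci. Acta1 was the gene in both cases. The median log2 fold change of the tested genes was −0.13. Means were lower in CF for 11 of the 17 and higher for 6. Among the lower ones were Myh6 (−1.36, SE 0.89, edgeR adjusted p = 0.510), Neb (−0.70, SE 0.33, edgeR adjusted p = 0.349) and Ryr1 (−0.66, SE 0.43, edgeR adjusted p = 0.497), named after their values were seen, and the groups overlapped in each. Acta1, skeletal muscle actin, was at 34.4 ± 15.5 CPM in CF, against 11.1 ± 2.04 CPM in WT (1.63, SE 0.32, edgeR adjusted p = 0.0814), and it was called without CF library 0. It is a large part of the summed level in CF. Fbxo32, a ubiquitin ligase subunit, was at 30.8 ± 6.94 CPM in CF, against 39.0 ± 9.33 CPM in WT (−0.34, SE 0.19, edgeR adjusted p = 0.433).

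Of 12 smooth muscle genes 9 were tested, and their summed level was 6291 to 8396 CPM in CF, against 4536 to 6583 CPM in WT. None passed by edgeR. At an unadjusted p of 0.05 (edgeR) 2 were higher in CF, as were 7.94% of all loci. DESeq2 called 2, Cnn1 and Des, where it called 621 of all 16941 loci. Myh11, smooth muscle myosin, was at 2068 ± 351 CPM in CF, against 1878 ± 385 CPM in WT (log2 fold change 0.14, SE 0.20, edgeR adjusted p = 0.777). Des, which encodes desmin, was at 1507 ± 338 CPM in CF, against 770 ± 114 CPM in WT (0.97, SE 0.18, edgeR adjusted p = 0.0689). The part of muscle cells in the Asb15 values was not tested.

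The tested genes whose log2 CPM most resembled that of Asb15 over the 8 libraries were Lrrc17 (Pearson r = 0.976), Ikzf2 (0.974), AABR07011996.1 (0.972), Xlr4a (0.963) and Dcaf8 (0.962). All 5 had lower CPM in every CF library than in any WT library, which choosing them by likeness to Asb15 favours. The same held for 3.91% of all tested loci. The differences of these 5 genes were far smaller than that of Asb15. Lrrc17 was at 0.455 ± 0.0911 CPM in CF, against 1.42 ± 0.233 CPM in WT, and Dcaf8, a substrate receptor of a cullin 4 ligase, was at 56.7 ± 1.65 CPM in CF, against 65.3 ± 1.92 CPM in WT. The most opposite were Creb3l1 (r = −0.992) and Ywhaz (−0.980). Among the tested paralogs r ran from −0.79 for Asb8 to 0.62 for Asb3. These are descriptions over 8 libraries that share the CF and WT split, with no test.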

How the data were processed

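The submitters' processing notes name build Rnor_6.0 and, without settings, Cuffdiff, StringTie, STAR 2.3.1z, cutadapt and bcl2fastq. The estimated counts are raw fragments per locus and library, deposited by the authors before scaling, per the file headers. Of these 5.99% were fractional, and all were rounded. The FPKM values per library were deposited by the authors, per the file headers. Another 2 per-library columns were not used. Spans of loci are 1-based.

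Loci were filtered with filterByExpr (minimum count 10, minimum total 15), scaled by TMM and tested, CF against WT, with edgeR (quasi-likelihood test, robust) and Benjamini-Hochberg adjustment over all 16941 tested loci and a threshold of 0.05. SEs are the log2 fold change over the root of F. Correlations used log2 CPM (prior count 2). Tools were DESeq2 1.42.0, edgeR 4.0.16 and limma 3.58.1 in R 4.3.3, with matplotlib 3.10.9 and pandas 2.3.3 in Python 3.11.15. The test was checked on simulated counts for 16565 loci. Recovery was 5 out of 50 loci (10%) for a 1.5-fold simulated difference, and 26 out of 49 (53.1%) for a 2-fold one. For a 4-fold difference it was 46 out of 48 (95.8%), and for a 30-fold one 49 out of 49. False calls made up 9 out of 135 (6.67%). Differences up to 2-fold can thus be missed, and a count of 0 calls does not show their absence. Alternatives were RLE or no scaling, other filters, no robust fitting, DESeq2, limma-voom, limma on log2 FPKM with 2 pseudocounts, a replicate block and leaving out each library.

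The members and gene lists were chosen with earlier results of these data known. Named genes were all members, every called list gene and the 2 most abundant of the ligase, adaptor, substrate and muscle lists, the 3 nearest named loci on each side of Asb15, and the 5 most and 2 least correlated with it. Further ligase subunits (Cul5, Tceb1, Tceb2, Rnf7), Socs1, Tes, Capza2, Lmod2, Myh6, Neb, Ryr1, Cnn1 and XLOC_035700 were named after their values were seen. Promoters come from RefSeq (GRCr8). Libraries could not be tied to sample titles, and only their group was used. A result on 1 gene of the substrate list is not reported here.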

Additional observations from a re-analysis of the deposited data

Results flagged for a closer look

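Of the 18 sets of 4 libraries examined (9 Asb genes in CF and in WT), 5 had 1 library whose gap to its nearest neighbour exceeded Dixon's critical share of the range, where chance flags about 1 in 20. For Asb4 WT library 2 was low at 0.373 CPM, and for Asb6 CF library 1 was low at 15.5 CPM. For Asb8 CF library 1 was high at 34.8 CPM and WT library 0 low at 29.5 CPM. For Asb13 WT library 3 was high at 70.8 CPM. The sets of Asb15 were not among them.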

How the results depend on the processing

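Under 18 other settings, none of the 7 tested paralogs was called. Signs changed for Asb1 (−0.021 on log2(FPKM + 0.1), −0.016 on log2(FPKM + 1), −0.049 with no scaling beyond totals, −0.0040 without WT library 1 and −0.013 without WT library 3) and for Asb13 (0.0045 without CF library 3 and 0.11 without WT library 3). With libraries left out, Asb1 ran from −0.013 to 0.11 and Asb13 from −0.19 to 0.11. Asb15 ran from −5.57 to −4.98, and was −3.96 on log2(FPKM + 0.1) and −1.61 on log2(FPKM + 1). 

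Calls over all loci were 23 higher and 5 lower in CF. They were 418 and 203 with DESeq2, 396 and 157 of 40061 loci with no low-count filter, and 14 and 3 with no scaling beyond totals. Lower calls were 3 on each FPKM scale and 3 without robust fitting. With 1 library left out, higher calls ran from 4 (without WT library 1 or 2) to 118 (without CF library 0) and lower ones from 1 to 18, and WT library 3, CF library 2 and CF library 3 also moved a count by over 1.5 times (5 and 1, 66 and 11, and 2 lower calls), as did WT library 0 (9 lower calls). Within 10 Mb of Asb15 calls were 2 higher with DESeq2, 2 higher and 1 lower with no filter, and 0 to 1 higher with libraries left out.

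List genes called with DESeq2 were 1 SOCS-box adaptor, 1 striated muscle, 2 smooth muscle and 3 goblet genes higher, and 2 enteroendocrine or tuft, 2 endothelial, 1 immune and 3 red cell genes lower. With no filter they were 2 smooth muscle and 2 goblet genes higher, and 2 enteroendocrine or tuft, 3 endothelial, 1 immune and 1 red cell gene lower. On each FPKM scale 1 striated muscle and 1 goblet gene were called higher. Of all 16941 loci, 18 were called higher on log2(FPKM + 0.1) and 17 on log2(FPKM + 1). With libraries left out, 0 to 1 striated muscle and 0 to 1 goblet genes were higher, and 0 to 2 endothelial, 0 to 1 enteroendocrine or tuft and 0 to 1 red cell genes lower. The causes were not tested.

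The table's library numbers are not those of the sample titles, and the block by title numbers was not run. Deviations of libraries with the same table number correlated at 0.0651, −0.106, 0.163 and −0.00826. Of the CF libraries 2 of 4 correlated best with the WT library of their own number, and 2 of 4 WT libraries with the CF library of theirs. With so few libraries this cannot decide whether the numbers pair them. With the table number as a replicate block, added after the table was seen, 9 loci were called higher and 2 lower, and no paralog was called. Asb4 had 60 fragments in all, and the power of the test at that count was not tested.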

Other observations

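A second locus with the symbol Asb13 covers the same span as the one described and varied more than any member. It had 17, 73, 273 and 97 fragments in CF libraries 0, 1, 2 and 3, against 19, 121, 449 and 23 in the WT libraries in the same order, so that library 2 was the highest in both groups. Its log2 fold change was −0.31 (SE 1.06, edgeR adjusted p = 0.920). The second locus of Asb8 had 29, 33, 33 and 42 fragments in the CF libraries against 29, 34, 37 and 18 in the WT libraries (0.14, SE 0.24, edgeR adjusted p = 0.818). Summing the loci of a symbol gave ratios of CF over WT means of 1.08 for Asb8 and 0.937 for Asb13, where the first locus alone gave 1.08 and 0.954.

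Markers of the other cell types held no call in edgeR's main fit. DESeq2 called 3 goblet genes higher, where it called 418 of all 16941 loci higher. It called 2 enteroendocrine or tuft, 1 immune and 3 red cell genes lower, where it called 203 of all loci lower. EdgeR with no filter, or with some libraries left out, also called goblet, enteroendocrine or tuft and red cell genes. Summed levels of the lists were 6142 to 9076 CPM in CF and 3987 to 7481 CPM in WT for goblet cells (6 tested), 204 to 259 CPM in CF and 198 to 282 CPM in WT for enteroendocrine and tuft cells (6), and 125 to 187 CPM in CF and 144 to 216 CPM in WT for immune cells (9). They were 32.0 to 39.3 CPM in CF and 27.8 to 48.6 CPM in WT for enteric neurons and glia (5), and 50.3 to 70.1 CPM in CF and 78.6 to 233 CPM in WT for red cells (3), the only one of these 5 lists in which the groups did not overlap. At an unadjusted p of 0.05 (edgeR), 3 goblet genes were higher in CF, and 3 enteroendocrine or tuft, 1 immune, 1 neural or glial and 3 red cell genes were lower. Of all tested loci, 7.94% were higher and 7.21% lower at that threshold. The part of these cell types in the Asb values was not tested.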
